A study of Rattus norvegicus with 6 samples.

Results

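Heat shock proteins and chaperones of the endoplasmic reticulum (ER) were examined in rat left ventricle, where 3 hearts came from normal and 3 from diabetic animals and each heart was hybridised to its own Affymetrix array. The members were all probe sets whose single annotated symbol belonged to the Hspa, Hspb, Hspd, Hspe, Hsph, Hsp90, Dnaj, numbered Cct or Pdia families, together with Sdf2l1, Calr, Canx, Xbp1, Hyou1, Ddit3 and Manf. This gave 93 of 15866 probe sets and 72 of 10411 named genes, and each gene was represented by its brightest probe set over the 6 arrays. The normal and the diabetic rats carry no further description in the labels, which state neither how diabetes was induced nor its duration, and neither strain, sex nor age. By known location, 39 members were placed in the cytosol or nucleus, 20 in the ER, 5 in mitochondria and 6 elsewhere, and 2 (Xbp1 and Ddit3) are transcription factors of the ER stress response. A further 4 probe sets named several genes, at least one of them within these families, and were left out. Hspa8, Hsp90aa1 and Hspa1b are not among the 72 members, so nothing is said of them here.

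Chaperones bind unfolded proteins and help them reach their native shape. In the cytosol, Hsp70 proteins (Hspa) are driven by J-domain proteins (Dnaj) and hand clients to Hsp90 or to the CCT ring, and the small heat shock proteins (Hspb) hold damaged filament proteins in striated muscle. In the ER, Hspa5 (BiP), Hsp90b1 (Grp94), the lectins Calr and Canx and the disulfide isomerases (Pdia) fold secreted and membrane proteins, including collagens and ion channels. Unfolded protein in the cytosol activates the factor Hsf1, which binds heat shock elements, while unfolded protein in the ER activates Atf6, Xbp1 and Atf4, which act through ER stress elements and related sites.

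Markers of the labelled tissue were bright on every array, with signals between 19340.2 and 53118.9 for the ventricular myosin light chains Myl2 and Myl3 and for Tnnt2, Tnni3 and Pln, which atrial cells also express. Atrial genes had varying signals, Myl7 at 99.9 to 812.1 with normal 1 highest, Myl4 at 110.4 to 524.7 and Sln at 10.5 to 465.6. Without detection calls, the lowest of these values cannot be told from background. Nppa, also on the atrial list, had 3816.2, 3934.5 and 3261.9 in normal and 19732.6, 29350.2 and 26649.7 in diabetic arrays. Its log2 difference was 2.76 (limma adjusted p = 0.00087). Values are signal intensities on a linear scale, and differences are diabetic minus normal of log2(intensity + 16), so that folds of weakly hybridising genes come out too small. Only probe sets in the upper part of the range, with a mean log2 level over the 6 arrays above the 40th percentile, entered the test. Of the 72 genes, 59 were tested with limma, and a gene was called when its Benjamini-Hochberg adjusted p over all 9519 tested probe sets was under 0.05. Over all tested probe sets, 274 were called (2.88%), 143 of them higher and 131 lower in diabetic hearts, and leaving out an array gave as few as 100 (normal 3, and likewise diabetic 2), 138 (normal 2) or 135 (diabetic 3). Nothing in the labels says more of how the hearts were sampled. The p-values set each difference against the spread between arrays within a group, which limma moderates over all tested probe sets, and cover only these 6 arrays.

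No tested member rose past the test in the diabetic ventricle. Of the 59 tested chaperone genes, 1 was called, the ER gene Sdf2l1, which fell. That is 1.69% of the members, beside 2.88% of all tested probe sets called in either direction, 1.5% higher and 1.38% lower. At an adjusted p under 0.1 stood 4 members (Sdf2l1, Dnaja1, Hspb1 and Dnajc12), beside 7.08% of all tested probe sets. An unadjusted p under 0.05 was reached by 12 members (20.3%) and by 19.9% of all tested probe sets. No member differed by more than 1 on the log2 scale, a size reached by 2.26% of all tested probe sets, and the differences ran from -0.77 for Dnajc1 to 0.58 for Dnajc12. The median size of a difference, regardless of sign, was 0.20 for the members and 0.20 for all tested probe sets.

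The differences leaned to the lower side. Of the tested members 44 (74.6%) had a log2 difference below 0, against 52.0% of all tested probe sets, and the median was -0.13 for members and -0.01 for all. Over all 72 members, dim ones included, the median was -0.11. The groups did not overlap at 20 tested members (33.9%), 7 with the diabetic arrays above and 13 with them below, while over all tested probe sets this held for 25.7%, 12.1% above and 13.6% below. At the median standard error of the members, 0.16, a difference had to reach about 0.70 on the log2 scale, or 1.63-fold, to be called. For 55 of the 59 the 95% interval of the difference lay between -1 and 1.

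**Figure D1:**
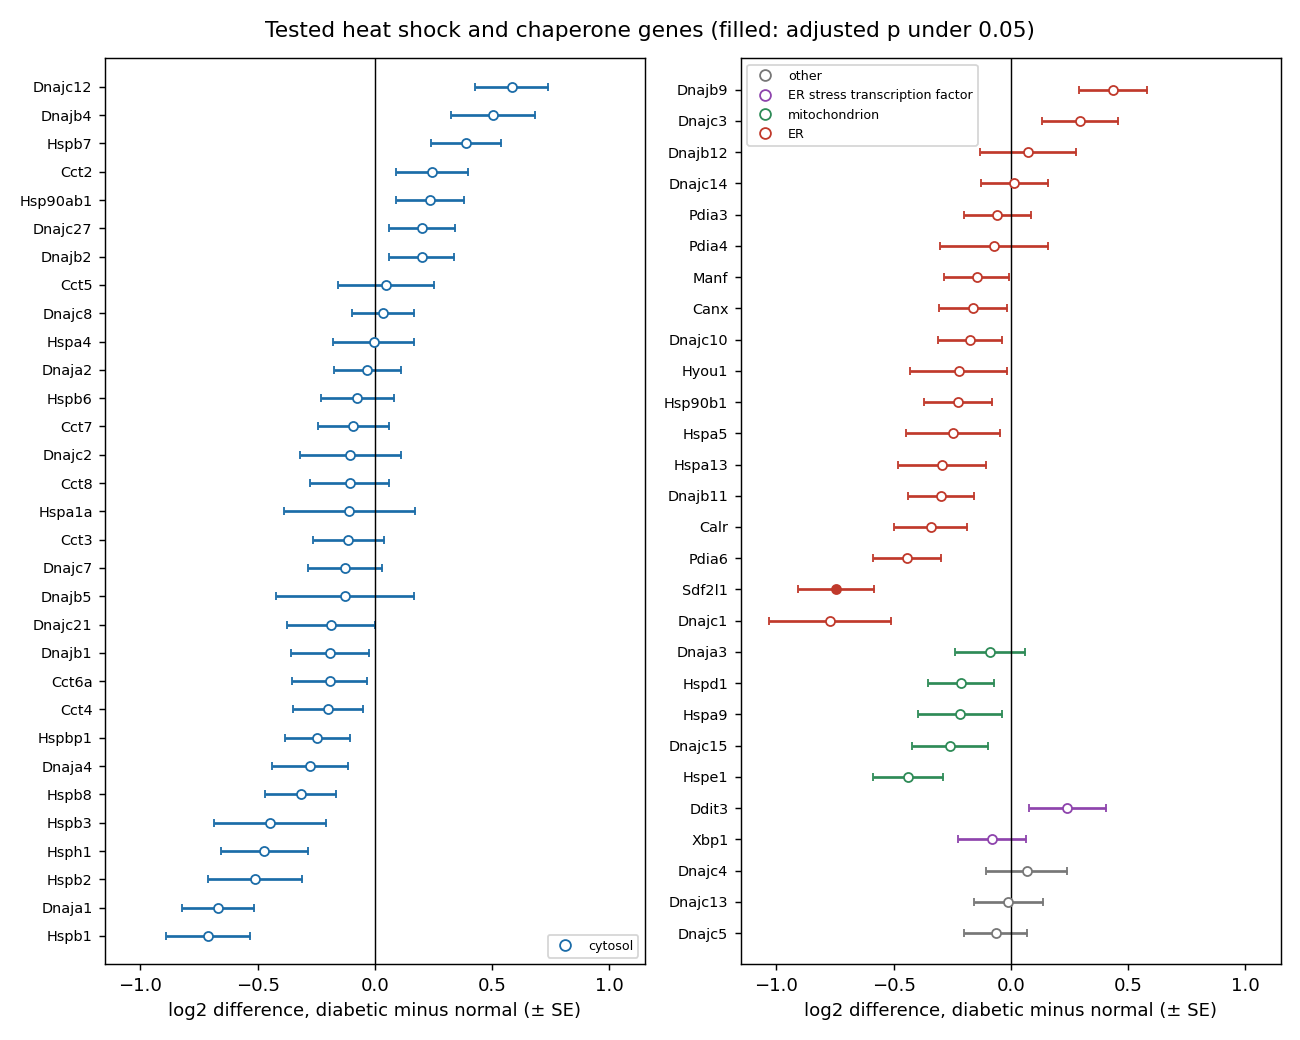
Log2 difference, diabetic minus normal, with its standard error, for the 59 tested chaperone genes, with cytosolic genes on the left and ER, mitochondrial and other genes on the right. The only filled point, with an adjusted p under 0.05, is Sdf2l1 at -0.75; most of the other points lie between -0.5 and 0.5, and 44 of the 59 lie below 0.

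Many ER chaperone genes are known to carry ER stress elements close before their start, which the promoters of the members were searched for. RefSeq promoter windows (assembly GRCr8, 250 bases before to 50 after the gene start) were found for 59 of the 72 members. The ER stress element, CCAAT followed after any 9 bases by CCACG on either strand, was present in 0.0657% of 33469 promoters and in those of 5 of 17 ER members, Hspa5, Hsp90b1, Calr, Canx and Dnajc3, as well as in that of Xbp1. These windows are shown because they identify, by sequence alone, which members carry the element. Each is written 5′ to 3′ on the gene's strand with the element in capitals, which includes a CCAAT box (a motif that 37.5% of all promoters hold on one strand or the other). A match describes letters and does not show a bound factor.

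Hspa5, chr3:38452953-38453011, plus strand: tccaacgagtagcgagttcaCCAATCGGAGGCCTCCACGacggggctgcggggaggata
Hsp90b1, chr7:23012431-23012489, minus strand: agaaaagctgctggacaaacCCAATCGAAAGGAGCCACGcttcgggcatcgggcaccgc
Hsp90b1, chr7:23012327-23012385, minus strand: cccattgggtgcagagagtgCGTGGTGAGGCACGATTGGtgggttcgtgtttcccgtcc
Calr, chr19:40213117-40213173, plus strand: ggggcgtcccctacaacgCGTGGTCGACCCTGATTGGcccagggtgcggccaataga
Canx, chr10:35158049-35158107, minus strand: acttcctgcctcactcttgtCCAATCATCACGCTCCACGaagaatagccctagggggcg
Dnajc3, chr15:102432514-102432572, plus strand: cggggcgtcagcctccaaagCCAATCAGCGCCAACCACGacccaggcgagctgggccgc
Xbp1, chr14:84604538-84604596, plus strand: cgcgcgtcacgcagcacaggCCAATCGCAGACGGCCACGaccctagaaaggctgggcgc

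None of the 6 genes with this element passed the test, beside 2.88% of all tested probe sets called. Hspa5, the central ER Hsp70 and sensor partner of the stress response, had signals of 1838.3, 2350.3 and 2466.7 in normal 1, 2 and 3 and of 1489.2, 1837.5 and 2320.9 in diabetic 1, 2 and 3. Diabetic 3 lay within the normal range, the other diabetic arrays lay just at or under its lower end, and the groups overlapped. The difference was -0.25 ± 0.20 (SE, adjusted p = 0.543), with a 95% interval from -0.70 to 0.20. Hsp90b1, the ER Hsp90, stood at 2703.8, 2274.9 and 2374.9 in normal and at 2116.8, 2212.8 and 1939.1 in diabetic arrays (-0.23 ± 0.14, adjusted p = 0.427). Here every diabetic array was below every normal one, although by little between normal 2 and diabetic 2.

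Calr, the soluble calcium-binding lectin chaperone, had 2135.0, 1754.4 and 1741.0 in normal and 1652.1, 1412.4 and 1361.7 in diabetic arrays. The groups did not overlap, and the difference was -0.34 ± 0.16 (adjusted p = 0.265). Canx, its membrane-bound relative, had 2718.8, 2521.8 and 2872.5 against 2617.8, 2185.2 and 2463.9 (-0.16 ± 0.14, adjusted p = 0.592). Diabetic 1 lay within its normal range, and the 3 tested probe sets of Canx disagreed in sign, with the others at 0.11 and -0.30. Dnajc3, a J-domain co-chaperone of Hspa5 that also restrains the ER stress kinases, lay on the other side, at 278.8, 310.7 and 358.0 in normal and 344.6, 446.2 and 383.2 in diabetic arrays (0.30 ± 0.16, adjusted p = 0.352). Xbp1 had means of 1813 ± 26.4 and 1721 ± 179 (SD, n = 3 per group; -0.08 ± 0.14, adjusted p = 0.819), and turned to 0.01 without diabetic 1. The arrays measure total Xbp1 signal and do not separate its spliced form.

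Sdf2l1, an ER-resident protein that works with the Hspa5 co-chaperone Dnajb11, was the member that fell. Its signal was 430.7, 365.0 and 420.0 in normal hearts and 276.2, 232.5 and 200.5 in diabetic hearts. The lowest normal array was above the highest diabetic array. The means were 405 ± 35.3 and 236 ± 38.0 (SD, n = 3 per group), a 1.68-fold lower level (log2 -0.75 ± 0.16 SE, limma adjusted p = 0.0488). The call was marginal. It was kept without diabetic 1 (adjusted p = 0.0478) and lost without any other array, at most 0.139 without normal 3, while the difference stayed between -0.86 and -0.64. It was also lost at a pseudocount of 1 (adjusted p = 0.0551), with quantile normalization (0.0511), with the dim filter set on linear means (0.0512), with the replicate number as a block (0.0749) and without a filter (0.187). The window of Sdf2l1 did not hold the letters of any stress motif searched.

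Other lumenal genes on the same side did not pass. Pdia6, a disulfide isomerase, was at 1523.1, 1372.9 and 1670.8 in normal and 1064.0, 1113.8 and 1161.0 in diabetic arrays. Its diabetic arrays were tightly grouped and all below the normal ones (-0.44 ± 0.14, 1.36-fold lower, adjusted p = 0.133). Dnajb11, the partner of Sdf2l1, had 417.6, 370.8 and 424.3 against 349.5, 302.9 and 324.5 (-0.30 ± 0.14, adjusted p = 0.285), again with no overlap. Dnajc1, a membrane J-domain protein, had the most negative difference of any tested member (-0.77 ± 0.26, adjusted p = 0.146), but its diabetic values were spread over 162.1, 352.8 and 219.2, and diabetic 2 was above normal 3 at 346.2. Dnajc10, an ER disulfide reductase, had no overlap between groups at its brighter probe set, at a difference of only -0.18 ± 0.14. Its other tested probe set was at -0.03 ± 0.15, with overlapping groups.

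Other genes of the ER stress response and of glycoprotein folding did not pass either. Manf, a secreted factor released on ER stress, had 959.4, 982.0 and 942.9 in normal and 858.0, 950.2 and 801.8 in diabetic arrays (-0.14 ± 0.14). Diabetic 2 alone reached the normal range. Pdia3, which folds glycoproteins with Calr and Canx, had 1678.8, 1544.1 and 1630.5 against 1401.4, 1615.3 and 1654.4 (-0.06 ± 0.14), and its relative Pdia4 had 186.6, 242.5 and 187.1 against 129.3, 234.8 and 235.3 (-0.07 ± 0.23). In both isomerases diabetic 1 was the lowest array and the other diabetic arrays lay within the normal range. Hyou1, a nucleotide exchange factor for Hspa5, had 258.6, 405.1 and 336.0 against 263.3, 233.9 and 350.9 (-0.22 ± 0.21), with its other probe set at -0.10. The wide spread of the normal arrays took in most of the diabetic values. Hspa13, a small ER relative of Hsp70, was at -0.29 ± 0.19. Pdia4 changed sign without normal 2 (0.04) and without diabetic 1 (0.19), and Pdia3 without diabetic 1 (0.02). Pdia2 and Pdia5 were too dim to be tested.

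On the positive side among ER members, Dnajb9, a J-domain protein that is itself induced through Xbp1 and directs misfolded proteins to disposal, had 400.1, 480.9 and 491.9 in normal and 616.8, 603.1 and 646.1 in diabetic arrays. Every diabetic array exceeded every normal array, by 1.35-fold on average (0.43 ± 0.15, adjusted p = 0.142). Ddit3 (CHOP), the factor linked to death under lasting ER stress, had 745.9, 681.2 and 618.5 against 677.9, 928.0 and 834.0. Diabetic 1 lay within the normal range and the other 2 diabetic arrays above it (0.24 ± 0.16, adjusted p = 0.463, 95% interval -0.13 to 0.61). Of the 18 tested ER members, 14 were below 0 and 4 above, with no overlap at 6 below and 1 above (38.9%, beside 25.7% of all tested probe sets, 13.6% below and 12.1% above).

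**Figure D2:**
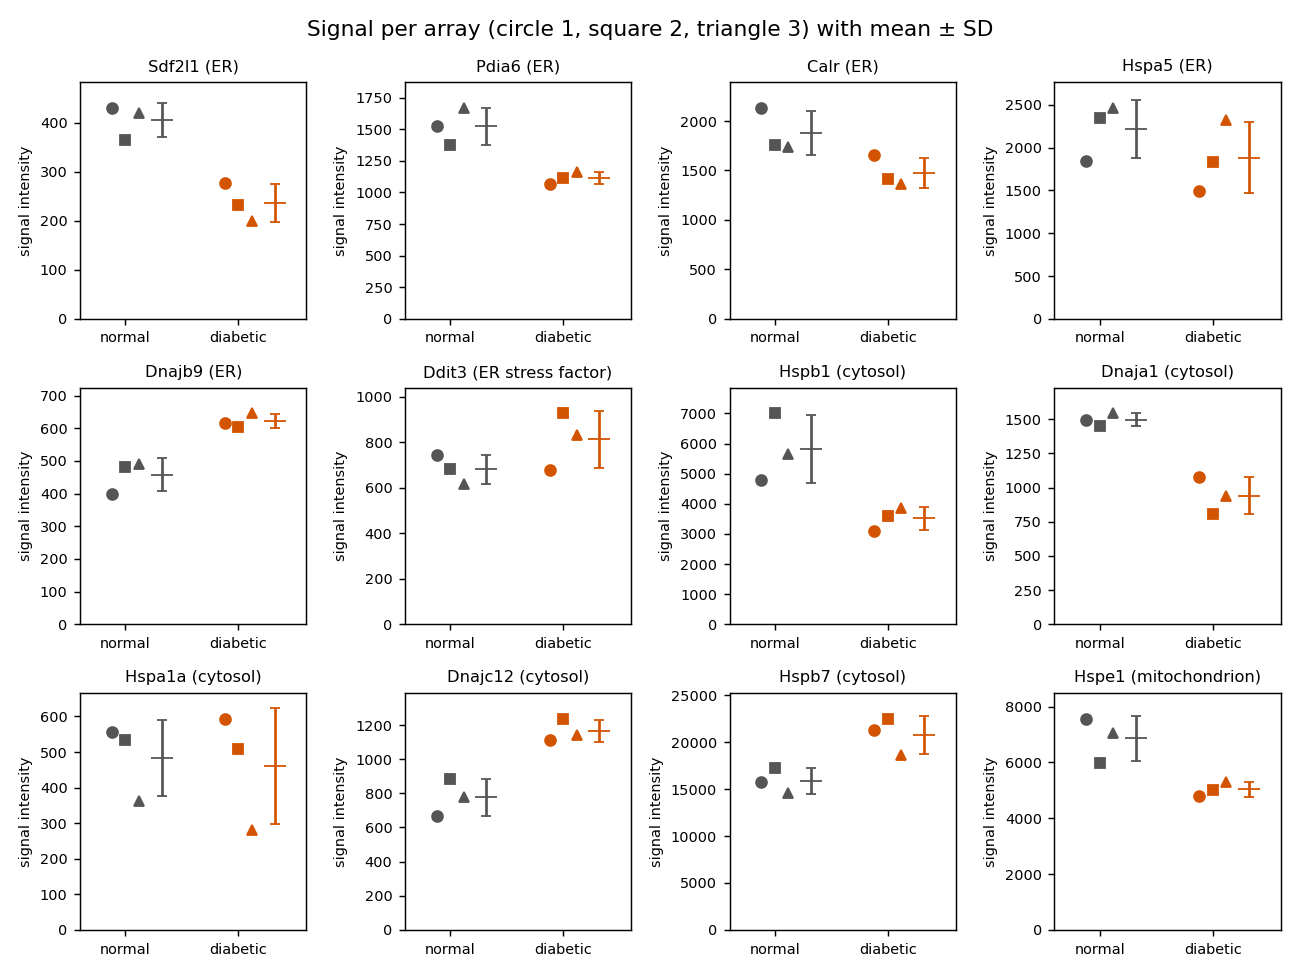
Signal intensity (linear scale, from 0) of 12 chaperone genes on each array, with normal arrays in grey and diabetic arrays in orange, symbols for array numbers 1 to 3 and bars for mean ± SD (n = 3 per group). Sdf2l1, Pdia6, Calr, Hspb1, Dnaja1 and Hspe1 are lower and Dnajb9, Dnajc12 and Hspb7 higher in every diabetic array, while Hspa5, Ddit3 and Hspa1a overlap.

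The heat shock element was searched as GAA, TTC, GAA, or TTC, GAA, TTC, with any 2 bases between the triplets. It was present in 0.798% of all promoters and in those of 5 of the 59 members, Hsph1, Hspd1, Hspe1, Dnaja1 and Cct4. The windows of Hsph1 and Hspe1 are printed because they show the element close before the start, with the element in capitals, which in Hspe1 is 2 overlapping matches. Hspd1 and Hspe1 start 290 bases apart on opposite strands, and their windows share 211 bases, so both genes carry the same pair of matches. In Dnaja1 and Cct4 the match lies just after the start.

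Hspe1, chr9:64084242-64084299, plus strand: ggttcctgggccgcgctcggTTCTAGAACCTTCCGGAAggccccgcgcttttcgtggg
Hsph1, chr12:10427312-10427364, plus strand: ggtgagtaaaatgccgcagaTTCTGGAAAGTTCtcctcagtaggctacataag

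All 5 genes with a heat shock element had a negative difference, beside 74.6% of all tested members and 52.0% of all tested probe sets. None passed the test, beside 2.88% of all tested probe sets called. With so few genes, these counts do not set them apart from the other members. Hsph1 (Hsp110), the nucleotide exchange factor that recharges cytosolic Hsp70, had 645.4, 801.9 and 928.9 in normal and 642.8, 474.8 and 577.4 in diabetic arrays. The groups were separated only narrowly, normal 1 and diabetic 1 being almost equal (-0.47 ± 0.18, adjusted p = 0.199). Dnaja1, the main cytosolic J-domain partner of Hsp70, had 1494.6, 1450.1 and 1543.2 against 1077.4, 806.1 and 936.0. Here the gap was wide and the normal arrays were close to each other (-0.67 ± 0.15, 1.59-fold lower), and the adjusted p of 0.0557 was just over the threshold. Its second probe set was at -0.22 ± 0.21 (adjusted p = 0.609), with overlapping groups. Cct4 was at -0.20 ± 0.15.

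The mitochondrial chaperonin is made of Hspd1 (Hsp60) and its lid Hspe1 (Hsp10). Hspe1 had 7566.5, 5968.6 and 7052.1 in normal and 4786.6, 5016.6 and 5304.8 in diabetic arrays, with no overlap (-0.44 ± 0.15, adjusted p = 0.150). Hspd1 had 8881.9, 7930.2 and 8240.1 against 7807.8, 6867.5 and 6937.4, separated by a small margin between normal 2 and diabetic 1 (-0.21 ± 0.14, adjusted p = 0.442). Both were thus lower in each diabetic array, and neither passed. Hspa9, the mitochondrial Hsp70 that pulls imported proteins into the matrix, had 3222.1, 2556.9 and 3740.9 against 3086.0, 2524.5 and 2519.0, with overlap (-0.22 ± 0.18), and was at -0.20 in its second tested probe set. Dnajc15 and Dnaja3, mitochondrial J-domain proteins, were at -0.26 ± 0.16 and -0.09 ± 0.15, so all 5 mitochondrial members lay below 0, although Dnaja3 was at 0.01 without diabetic 1.

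Among the small heat shock proteins, which in heart protect the sarcomere, the members did not share a direction. Hspb1 (Hsp27) had 4780.3, 7008.1 and 5639.4 in normal and 3086.4, 3603.1 and 3852.5 in diabetic arrays. Every diabetic array was lower, by 1.64-fold on average (-0.71 ± 0.18, adjusted p = 0.0728). Hspb7, a cardiovascular form, had 15773.1, 17246.2 and 14565.9 against 21276.0, 22509.6 and 18586.3. Its diabetic arrays were all higher, by 1.31-fold (0.39 ± 0.15, adjusted p = 0.192). Hspb6 (Hsp20), a target of protein kinase A in the heart, had 27784.0, 25653.1 and 21190.5 against 23662.1, 25084.3 and 21791.1, with every diabetic array inside the normal range (-0.07 ± 0.16), and turned to 0.01 without normal 1.

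Of the other muscle-enriched forms, Hspb2 was at -0.51 ± 0.20 (adjusted p = 0.199) with 850.2, 1023.7 and 1124.4 in normal and 642.9, 903.2 and 567.0 in diabetic arrays. Hspb3 had 1208.7, 1478.9 and 1969.7 against 1023.5, 1503.2 and 889.5 (-0.45 ± 0.24, adjusted p = 0.338). In both genes diabetic 2 reached into the normal range. Hspb8 (Hsp22), which acts with Bag3 to clear damaged filament proteins, had 2572.8, 2543.4 and 2743.7 against 1978.9, 2446.2 and 1911.4 at its brighter probe set, without overlap (-0.32 ± 0.15), and was at -0.12 at the other. Of the 6 tested Hspb members, 5 were thus below 0, with a median of -0.38. Cryab, a small heat shock protein that the symbol rule leaves out, is not in that count. Its means were 39061 in normal and 37866 in diabetic arrays, with overlap (-0.04 ± 0.15, limma adjusted p = 0.919).

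The inducible Hsp70 and Hsp40 and the constitutive Hsp90 did not pass. Hspa1a, the inducible Hsp70, had 555.9, 534.0 and 361.2 in normal and 593.8, 507.5 and 279.9 in diabetic arrays. Array 3 was lowest in each group and the groups covered nearly the same range (-0.11 ± 0.28, adjusted p = 0.874), and the difference turned to 0.20 without diabetic 3. Since Hspa1a has a near-identical copy, Hspa1b, its signal cannot be assigned to one of them. Dnajb1 (Hsp40) had 294.5, 360.5 and 410.3 against 340.3, 303.0 and 279.6, with overlap (-0.19 ± 0.17), and was at 0.10 in its second probe set. Hsp90ab1, the constitutive cytosolic Hsp90, had 11259.3, 10004.5 and 9365.2 against 12109.2, 12811.5 and 11072.7, with normal 1 just above diabetic 3 (0.23 ± 0.15, adjusted p = 0.417). The other probe set of Hsp90ab1 was at 0.11 ± 0.13 (limma adjusted p = 0.690), with every diabetic array above every normal one. Hspa4 was at -0.01 ± 0.17, with no stable sign.

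No subunit of the chaperonin CCT, which folds actin and tubulin, was called. Of the 7 tested subunits with a numbered Cct symbol, 5 were below 0 and 2 above. Their range was -0.20 to 0.24 (Cct4 and Cct2), and the groups overlapped for each. Tcp1, a subunit that the symbol rule leaves out, was at -0.06 ± 0.16 (limma adjusted p = 0.871), also with overlap. Cct5 was the most variable, with 2983.4, 5097.4 and 3313.3 in diabetic arrays against 3496.2 to 3683.2 in normal ones, so that diabetic 2 alone stood above, and its difference of 0.05 was -0.18 without that array. Cct2 had 1699.9, 1635.2 and 1758.0 against 1706.4, 2155.7 and 2219.3, where diabetic 1 lay among the normal arrays and the other diabetic arrays above them.

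The largest positive differences among tested members were those of J-domain genes. Dnajc12, which assists the aromatic amino acid hydroxylases, had 666.6, 883.7 and 778.0 in normal and 1110.8, 1237.4 and 1144.0 in diabetic arrays. All diabetic arrays were higher, by 1.5-fold (0.58 ± 0.15, adjusted p = 0.0828). Dnajb4, a relative of Dnajb1 found in muscle, had 3262.7, 3020.1 and 2171.2 against 3708.0, 4144.7 and 3977.0 (0.50 ± 0.18, adjusted p = 0.164). Normal 3 was the lowest array, and without it the difference was 0.33. Of the 25 tested Dnaj genes, 10 were above 0 and 15 below, with a median of -0.06. Dnajc5, a synaptic and secretory vesicle chaperone, had probe sets of opposite sign (-0.06 and 0.11), as did Canx and Dnajb1 among the 14 genes with more than 1 tested probe set.

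The 13 genes left untested (Hspa1l, Hspa2, Hspa12a, Hspa12b, Hspbap1, Dnajb3, Dnajb13, Dnajc6, Dnajc17, Dnajc22, Dnajc24, Pdia2 and Pdia5) had mean signals from 15.0 to 114.3, close to the low end of the arrays, where background cannot be told from signal without detection calls. The groups did not overlap in 3 of the 13. The share was 25.7% over all tested probe sets, which are brighter, and it was not counted over the untested ones. The signal of Hspa1l was 5.4, 1.8 and 2.7 in normal and 34.3, 40.8 and 16.1 in diabetic arrays, that of Hspbap1 was 13.7, 13.0 and 27.6 against 44.7, 38.5 and 133.4, and that of Dnajc22 was 31.4, 42.6 and 89.2 against 16.6, 11.7 and 6.7. These dim values are given without a test.

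Set side by side, the ER members had a somewhat lower median difference than the cytosolic members. It was -0.20 over 18 tested ER genes and -0.11 over 31 tested cytosolic genes, beside -0.01 over all tested probe sets. Of the ER genes 77.8% were below 0 and of the cytosolic genes 71.0%. Called genes numbered 1 in the ER (5.56%) and 0 in the cytosol, against 2.88% of all tested probe sets, and an unadjusted p under 0.05 was reached by 4 ER and 7 cytosolic genes. The gap between the medians, -0.09, was not tested. It was -0.03 without normal 1 and -0.01 without normal 3, and -0.05 when all tested probe sets of a gene were averaged.

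By array, each gene was centred on its mean over the 6 arrays and the median over genes was taken. The ER medians were 0.09, 0.06 and 0.07 in normal and -0.14, -0.07 and 0.01 in diabetic arrays. Diabetic 3 was close to the normal arrays and the other diabetic arrays farther below. The cytosolic medians were 0.02, 0.02 and 0.00 in normal and -0.03, 0.06 and -0.11 in diabetic arrays, so these groups overlapped. The ER minus cytosol difference was 0.06, 0.04 and 0.07 in normal arrays and -0.12, -0.13 and 0.12 in diabetic arrays, and diabetic 3 was thus the highest of all 6.

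**Figure D3:**
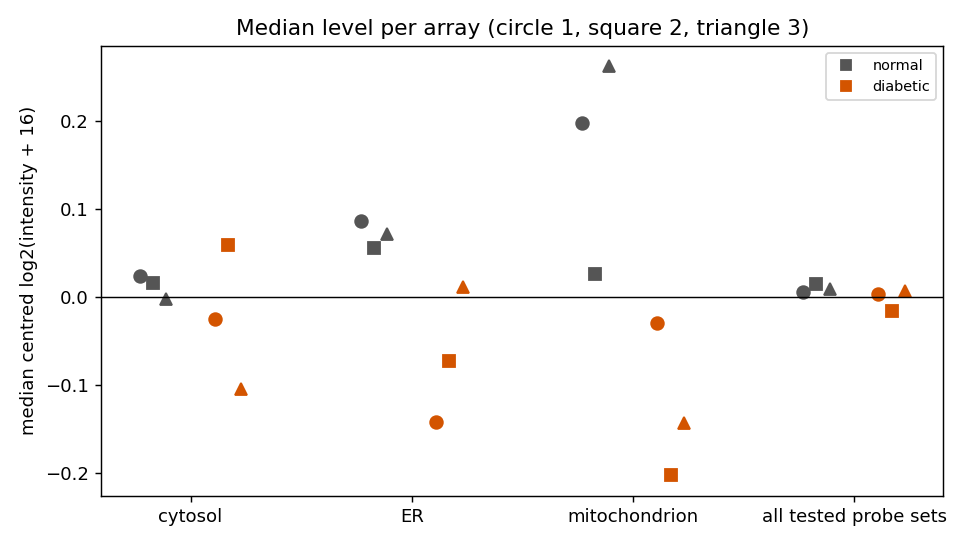
Median over genes of the centred log2(intensity + 16) value on each array, for 31 cytosolic, 18 ER and 5 mitochondrial members and for all tested probe sets, with grey for normal, orange for diabetic and symbols for array numbers 1 to 3. The ER and mitochondrial medians of the diabetic arrays lie below those of the normal arrays, with diabetic 3 at 0.01 in the ER, while the cytosolic medians overlap.

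**Figure D4:**
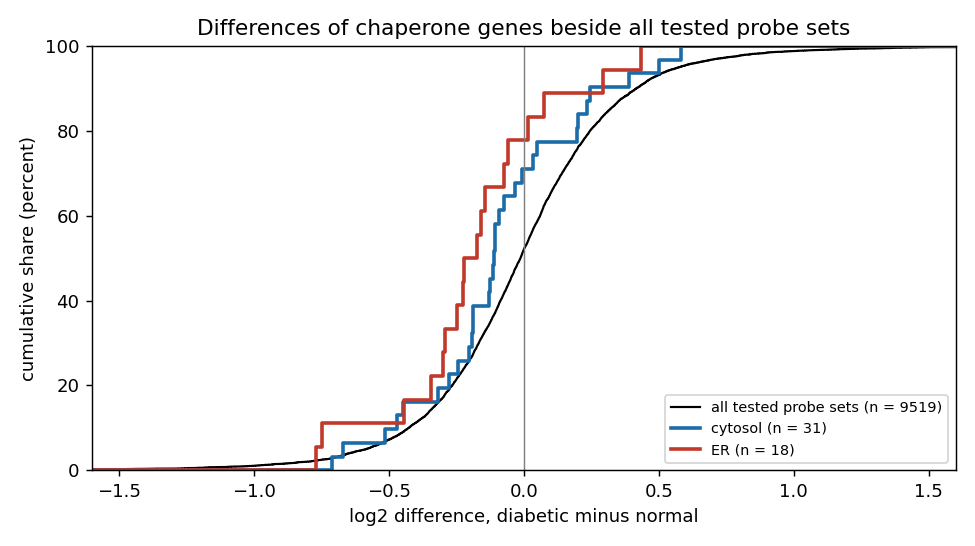
Cumulative share of genes or probe sets (percent) against the log2 difference, diabetic minus normal, for all 9519 tested probe sets, 31 cytosolic and 18 ER members. At 0 the curve of all probe sets stands at 52.0%, the cytosolic at 71.0% and the ER curve at 77.8%, and neither member curve reaches beyond 1 in either direction.

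Collagen genes, which fibroblasts express, fell in the diabetic arrays. Over all tested probe sets, 52.0% were below 0, 2.88% were called and 19.9% had an unadjusted p under 0.05 by limma. These shares stand beside each marker list given here. Of 12 tested fibroblast markers 8 were below 0 (66.7%), and 4 fell and none rose (33.3%), namely Col1a1, Col1a2, Col3a1 and Lum. Others did not follow: Gsn was higher in every diabetic array (0.33), Vim was at 0.17, Pdgfrl at 0.22, Fbln1 at 0.02 and Dcn at -0.01, none of them called. Col3a1 was called in each alternative run. When dim probe sets were kept in the test, the calls of Col1a1 (adjusted p = 0.117), Col1a2 (0.0679) and Lum (0.0688) were lost, and that of Col1a1 was lost also without normal 1 (0.0536), normal 3 (0.0704) or diabetic 3 (0.0517). The summed signal of all 13 markers with a probe set was 64883.1 to 75521.2 in normal and 48200.1 to 56533.3 in diabetic arrays, with Col3a1 going from a mean of 10058 to 2579 and Mgp, not called, from 14481 to 9446. No marker on the list was at 0, and the dimmest, Postn, had means of 52.8 and 57.7. In whole ventricle, fewer cells of a type and less RNA per cell cannot be told apart, and the part of fibroblasts in the ER values was not tested. Of 13 tested cardiomyocyte markers 11 were below 0 (84.6%), with Myh6 called lower (a call lost without any normal array or diabetic 1, at adjusted p up to 0.0769, and at 0.161 with dim probe sets kept) and Myh7 higher (lost at 0.0756 only with dim probe sets kept). Their summed signal overlapped, at 365749.5 to 457416.9 in normal and 354427.2 to 442876.0 in diabetic arrays. Of 7 tested smooth muscle and pericyte markers 6 were below 0 (85.7%) and none was called by limma (2 had an unadjusted p under 0.05), and their summed signal was 13497.9 to 15487.9 against 15138.1 to 16393.9. That sum is dominated by Des, which cardiomyocytes also express, the brightest marker of the list and the only tested one above 0. Its means were 8945 in normal and 11569 in diabetic arrays, so the sum does not describe the other markers. No macrophage marker was called or had an unadjusted p under 0.05 by limma (8 tested, 1 below 0), and of 10 tested endothelial markers 5 were below 0 and Tie1 fell (lost without normal 2, normal 3, diabetic 2 or diabetic 3, at up to 0.0811, with the replicate block at 0.0518 and with dim probe sets kept at 0.125). The part of these cell types in the chaperone values was not tested.

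The neighbouring genes of these pathways, taken from lists of related functions, put these values in context. Of 43 tested genes of ER folding and export outside the families above, 2 fell and none rose (4.65%, beside 2.88% of all tested probe sets), with a median of -0.07. Serpinh1, the collagen-specific chaperone, had 2014.7, 2262.4 and 2500.3 in normal and 814.0, 819.8 and 823.4 in diabetic arrays (-1.44 ± 0.14, adjusted p = 0.00297), and it was called in each of the alternatives run. Kdelr3, a receptor that returns chaperones to the ER, fell by 1.28 on the log2 scale (adjusted p = 0.0146), and that call was lost without diabetic 2 (adjusted p = 0.0608), without diabetic 3 (0.0573) and when dim probe sets were kept in the test (0.103). P4hb, a disulfide isomerase and collagen hydroxylase subunit, was at -0.42 ± 0.15 (adjusted p = 0.163), and Sec61b, of the ER translocation channel, at -0.68 ± 0.20 (adjusted p = 0.102).

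Of 24 tested genes of unfolded protein response signalling and ER-associated degradation, 1 rose and none fell (4.17%, beside 2.88% of all tested probe sets). The median difference was 0.16, beside -0.20 for the ER chaperones and -0.01 for all tested probe sets. The gap between these medians was not tested. Nupr1, a stress-induced nuclear regulator, had 161.4, 144.0 and 179.0 in normal and 518.2, 482.4 and 342.1 in diabetic arrays, 2.58-fold higher (1.37 ± 0.18, adjusted p = 0.00783). It stayed called with any 1 array left out, was lost when dim probe sets were kept in the test (0.0745), and was itself too dim for the filter at the 60th percentile. Herpud1, a membrane component of ER-associated degradation, had 2502.6, 2297.0 and 1356.4 against 4216.0, 3755.7 and 3054.7 (0.87 ± 0.24, adjusted p = 0.0923). The groups did not overlap, but the gene did not pass. Erlec1, a lectin of the same disposal route, was at -0.56 ± 0.18 (adjusted p = 0.135).

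Of 28 tested Hsf and cytosolic co-chaperone genes, 1 fell and none rose (3.57%, beside 2.88% of all tested probe sets), with a median of -0.04. Fkbp4, an Hsp90 co-chaperone of steroid receptors, had 1846.6, 1796.7 and 2227.9 in normal and 1284.6, 1143.6 and 1009.6 in diabetic arrays (-0.76 ± 0.16, adjusted p = 0.0420). Removal of any single array ended that call (adjusted p from 0.0546 to 0.135), as did a pseudocount of 1 (0.0520), the replicate block (0.0833) and keeping dim probe sets in the test (0.178). Its relative Fkbp5, which is induced by glucocorticoids, had 1261.2, 908.0 and 386.8 against 2006.9, 2095.9 and 1747.2, higher in every diabetic array without passing (1.33 ± 0.36, adjusted p = 0.0865). Chordc1, another Hsp90 co-chaperone, was at -0.60 ± 0.15 (adjusted p = 0.0722). None of 11 tested genes of mitochondrial protein quality control was called by limma or reached an unadjusted p under 0.05, and their median was -0.06. Over all tested probe sets, 2.88% were called and 19.9% reached that unadjusted p. The smallest p-values on this list were those of Atf5, a regulator of the mitochondrial stress response (-0.23 ± 0.16), and Clpx, a subunit of the matrix protease ClpXP (0.27 ± 0.23).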

How the data were processed

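Total RNA of 6 left ventricles was measured on 1 array each, and the authors deposited 1 linear signal intensity per probe set. Which software and scaling made these values is not given in the sources used here. Trimmed means (2% off each end, control probe sets excluded) were 495.5 to 496.6, so intensities were used as deposited. No detection calls were used. The 57 control probe sets were left out. All 93 member probe sets matched a rat gene table (GRCr8) by gene number.

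Values were taken as log2(intensity + 16), and 9519 probe sets above the 40th percentile of mean log2 level entered a two-sided limma test (version 3.58.1, R 4.3.3, eBayes) with the rat group as its single factor. The code was tested on simulated data. With 3 against 3 arrays an exact permutation test cannot go below p = 0.1, so calls rest on limma's model. Genes were given by array if they passed, had one of the 6 largest differences in either direction, or stood on a panel of stress genes, and others by their difference. The members and gene lists were chosen with earlier results of these data known. Alternatives covered pseudocounts of 1 and 64, quantile or median scaling, no filter or a 60th percentile filter, a blocked fit by replicate number, array weights, robust or trended priors, averaging the probe sets of a gene, omission of single arrays, and a threshold of 0.1. The filter on linear means was added after seeing the data. Promoters came from RefSeq and were searched on both strands, also for TGACGTGG (0.595% of all promoters) and TTGCATCA (0.795%). Figures used matplotlib 3.10.9 in Python 3.11.15.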

Additional observations from a re-analysis of the deposited data

How the results depend on the processing

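The number of arrays limits the precision, and dim signals have no measured background here. The count of called probe sets, 274, was 18 without a filter, 437 with a filter at the 60th percentile, 527 with an intensity trend and 674 at a threshold of 0.1, and 100 to 202 with 1 array left out. The count of called chaperone genes, 1, was 0 by limma at a pseudocount of 1, with quantile normalization, with the filter on linear means, without a filter and with the replicate block (12, 12, 12, 13 and 12 members then had an unadjusted p under 0.05). It was 2 with array weights (Dnaja1 and Sdf2l1), 3 at a pseudocount of 64 (with Hspb1 added) and 4 with the filter at the 60th percentile, with an intensity trend and at a threshold of 0.1 (with Dnajc12 added), and 0 to 1 with 1 array left out, the 1 being Sdf2l1 without diabetic 1. The causes of these changes were not tested. Same-numbered arrays deviated together at r = 0.07, 0.01 and 0.02, and differently numbered arrays at -0.08 to 0.07. The labels state no pairing, and these weak correlations cannot exclude one. With the replicate block 183 probe sets were called. The median difference ranged over all alternatives from -0.16 to -0.08 for cytosolic genes and from -0.22 to -0.15 for ER genes, and the gap between them from -0.11 to -0.01. Each shift from the reported value was under the pooled SD of the medians by array (0.06, 0.06 and 0.10). For the gap this SD is larger than the reported -0.09 itself, so it cannot show that the gap was kept, and in some alternatives the gap nearly vanished. Of the 59 tested members, 15 turned sign in at least 1 of the 6 fits with an array left out, all with a reported difference of at most 0.129 in size. For those described by name the ranges were -0.186 to 0.0097 for Hspb6, -0.103 to 0.0157 for Pdia3, -0.204 to 0.191 for Pdia4 (also 0.04), -0.142 to 0.0051 for Xbp1, -0.320 to 0.201 for Hspa1a, -0.142 to 0.0082 for Dnaja3, -0.184 to 0.201 for Cct5 and -0.124 to 0.0975 for Hspa4, and -0.116 to 0.0674 for the fibroblast marker Dcn. Hspa4 was also at 0.0059 with quantile normalization, and Dnajc5 at 0.0231 with its probe sets averaged.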
